A study of Homo sapiens with 60 samples.

Results

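Menthae Herba 500 was compared with Saposhnikoviae Radix 500 in A549 cells, a human lung adenocarcinoma line, by RNA sequencing after 24 h of treatment. Menthae Herba is the dried aerial part of mint and Saposhnikoviae Radix the dried root of Saposhnikovia divaricata. Both were given as hot-water extracts that the labels state at 500 µg/mL, with 3 libraries for each herb. These 6 libraries were chosen by their treatment label from the 60 of the series, and both herbs share the first number of their library names, 5. The same herbs at 100 and 20 µg/mL, again with 3 libraries a group, and 3 vehicle libraries served as further points. The vehicle was DMSO, at 0.1% by the sample labels and at 2% by the text on the whole series. The series text also states that extracts were given at their 20% inhibitory concentration where it was below 500 µg/mL, while the labels used here print 500 for both herbs. Nothing in the labels says that libraries within a group were cultured separately, so each p-value measures only a spread between libraries of a group, which may be technical. For the gene tests that spread was estimated over 57 libraries in 19 groups, most of them given other extracts or doses.

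The comparison asks which transcripts respond differently to 2 plant extracts at the same labelled concentration. Many plant compounds are planar aromatic molecules, and cells sense such molecules through the aryl hydrocarbon receptor (AhR). AhR waits in the cytosol with HSP90 and other chaperones, enters the nucleus when a ligand binds, pairs there with ARNT and binds DNA at sites with the core GCGTG. Its targets include the CYP1 enzymes, which oxidise aromatic compounds and act in lung epithelium exposed to smoke, and the repressors AHRR and TIPARP, which feed back on the receptor. The NR4A genes encode orphan nuclear receptors that many stimuli induce within a short time.

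Library totals at 500 µg/mL ran from 20428437 to 24443015 counts for Menthae Herba and from 18330592 to 30893738 counts for Saposhnikoviae Radix. Mitochondrially encoded genes took 11.7% ± 1.07 of the counts in Menthae Herba libraries and 11.2% ± 0.463 in Saposhnikoviae Radix libraries (SD, n = 3 each, two-sided exact permutation p = 0.7, where the smallest p that 3 against 3 allows is 0.1). All 10 genes of the A549 epithelial list were at 1 CPM (a count scaled to a library total of 1e6 reads) or more in both groups. Of these, FGB was called lower in Menthae Herba than in Saposhnikoviae Radix. Of 6 fibroblast markers, COL1A1 and COL3A1 reached 1 CPM in both groups, DCN was at 0 in all 6 libraries, COL1A2 was at 0 in Saposhnikoviae Radix and under 1 CPM in Menthae Herba, and the list summed to 42.1 to 47.5 CPM in Menthae Herba and 39.8 to 42 CPM in Saposhnikoviae Radix. The 6 leukocyte markers summed to 3.13 to 4.08 CPM in Menthae Herba and 3.85 to 4.64 CPM in Saposhnikoviae Radix, with CD3E at 0 in all 6 libraries. Of them CD14 and ITGAM reached 1 CPM in both groups, and the other 4 stayed under 1 CPM. All 6 endothelial markers stayed under 1 CPM. In bulk libraries, fewer cells of a type and less RNA per cell cannot be told apart.

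With Menthae Herba 500, A549 cells carried more transcript of CYP1A1, TIPARP, AHRR and CYP1B1, which are 4 of the 9 tested AhR targets, than with Saposhnikoviae Radix 500, and less of NR4A1 and H19. Of 17256 genes tested, 254 (1.47%) passed an edgeR quasi-likelihood adjusted p of 0.05. Higher in Menthae Herba were 85 genes (0.493%), and lower were 169 (0.979%). In the comparison between herbs, rose and fell mean higher and lower in Menthae Herba 500 than in Saposhnikoviae Radix 500, and not a change from vehicle. The changes were small: the median size among the 254 was 0.28 on the log2 scale, and 217 of them stayed under 0.5. Only 4 reached 2-fold, namely CYP1A1 and DNAH10 on the higher side and NR4A1 and ARHGEF35 on the lower side. DNAH10 and ARHGEF35, named here after their values were seen, averaged under 1 CPM in every group. Among the called genes were 84 higher and 164 lower protein-coding genes of 13671 tested. Leaving out Menthae Herba library 2 or 3 gave 159 and 147 calls, and leaving out Saposhnikoviae Radix library 2 or 3 gave 160 and 149, against 254 with all 6.

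**Figure D1:**
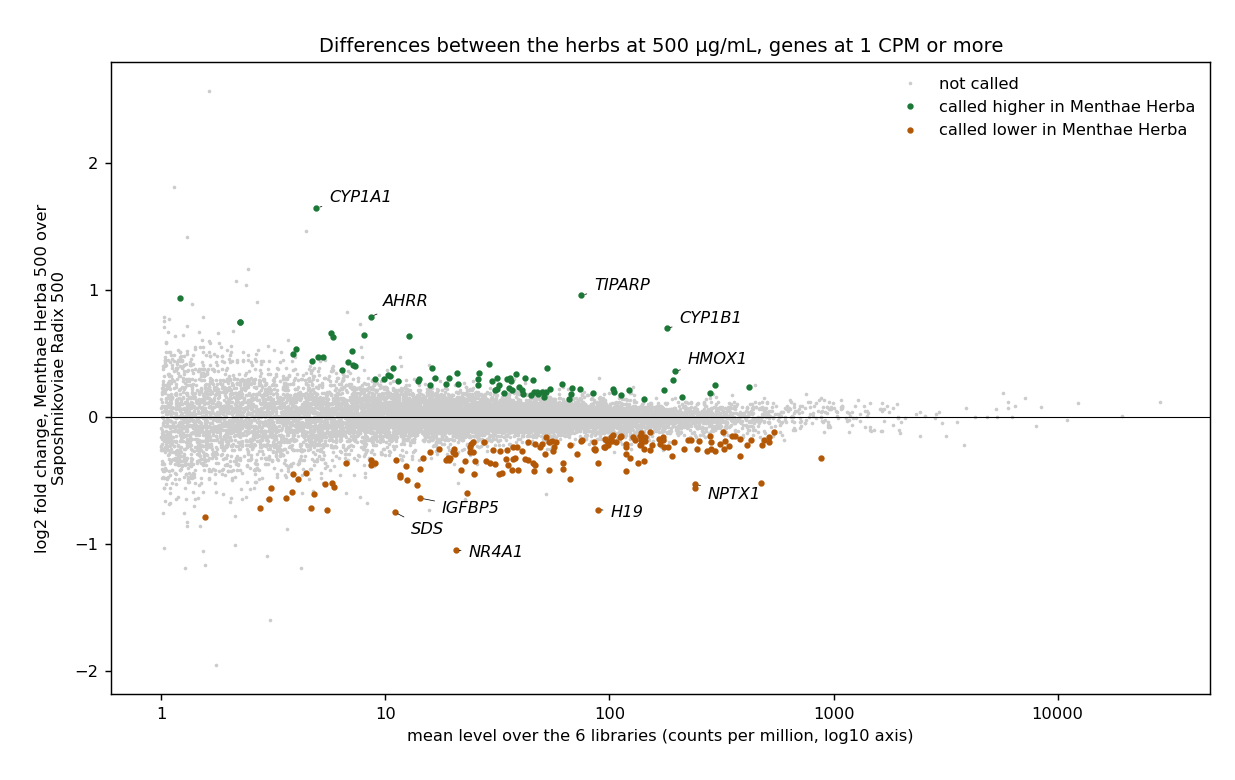
Log2 fold change of Menthae Herba 500 over Saposhnikoviae Radix 500 against the mean CPM over the 6 libraries, for the 13809 tested genes that average 1 CPM or more; coloured points are genes called by edgeR. The called genes lie mostly within 0.5 of 0 on the log2 scale, with CYP1A1, TIPARP, AHRR and CYP1B1 above and NR4A1, SDS and H19 below.

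Upstream stretches are printed for the genes that lead each side, so that the AhR core can be read in them. The windows are the 250 bases before a RefSeq transcription start on GRCh38.p14, and the core was searched as GCGTG on both strands (CACGC when read on the gene's strand). The core was in 32.2% of the 35116 windows listed and in 42.7% of the 16986 windows of tested genes. CYP1A1 (chromosome 15) had 1 match, 57 bases before its start. TIPARP (chromosome 3) had 2 matches before the first of 3 listed starts and none before the other 2 starts. AHRR (chromosome 5) had 1 match before the first of its starts and 2 before the other. NR4A1 (chromosome 12), the lowest of the named genes, had none before the first listed start and 1 before the other. Only its window without a match is printed, and no TIPARP window without a match is printed, so the lines do not show a contrast between genes. Each line gives the gene's strand from 5′ to 3′, and capitals mark the core or its complement.
CYP1A1, chr15:74725568-74725597, minus strand: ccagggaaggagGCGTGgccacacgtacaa
TIPARP, chr3:156674370-156674399, plus strand: cgcgagaaaggaCACGCcccctcgcgggag
TIPARP, chr3:156674436-156674465, plus strand: cgaacgaacgcgCACGCgcgcgcagggggc
AHRR, chr5:321464-321713, plus strand: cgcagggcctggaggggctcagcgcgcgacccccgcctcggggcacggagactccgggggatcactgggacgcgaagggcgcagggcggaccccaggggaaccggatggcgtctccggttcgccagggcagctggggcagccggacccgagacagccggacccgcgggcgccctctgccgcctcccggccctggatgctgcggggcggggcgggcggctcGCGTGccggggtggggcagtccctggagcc
AHRR, chr5:322556-322585, plus strand: gcagaagggtggGCGTGtgcgcgcgttctc
NR4A1, chr12:52022582-52022831, plus strand: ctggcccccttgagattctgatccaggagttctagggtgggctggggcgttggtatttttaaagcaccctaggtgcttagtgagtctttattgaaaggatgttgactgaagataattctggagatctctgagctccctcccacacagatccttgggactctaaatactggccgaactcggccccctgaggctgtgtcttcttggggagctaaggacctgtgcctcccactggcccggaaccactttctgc
Such a match is a description of the letters and not a binding site. Of the genes called higher in Menthae Herba, 64 had entries and 114 windows, of which 45.6% held the core. The 128 genes called lower had 203 windows, of which 34.5% held it. Of the 12 highest named genes 9 had entries, and 5 of these (55.6%) held the core in at least 1 window. Of the 12 lowest 10 had entries, and 5 (50%) held it, beside 52% of the tested genes with entries. CYP1B1, TSPAN18, GCH1, TPPP3 and MUC5AC were among the named genes that were not matched in the table.

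Among called genes at 5 CPM or more in either herb, the 4 with the highest log2 fold changes were AhR targets. Of 9 tested members, 4 rose (CYP1A1, TIPARP, AHRR and CYP1B1) and 0 fell, where 0.493% of all tested genes rose. The list's median log2 fold change was 0.09 beside 0.00 over all tested genes. CYP1A1, which oxidises polycyclic aromatic compounds (GRCh38 chr15:74719542-74725610, minus strand), had 7.99, 7.00 and 7.54 CPM in Menthae Herba, against 2.85, 1.80 and 2.38 CPM in Saposhnikoviae Radix. The groups did not overlap, as for 21% of all tested genes, and the lowest Menthae Herba library lay far above the highest Saposhnikoviae Radix library. The log2 fold change was 1.65 ± 0.153 (SE, adjusted p = 1.56e-10).

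TIPARP, a mono-ADP-ribosyltransferase that AhR induces and that represses AhR, had 96.7, 99.5 and 100 CPM in Menthae Herba, against 51.7, 51.5 and 49.7 CPM in Saposhnikoviae Radix. Libraries of either group lay within a few CPM of each other. Its log2 fold change of 0.96 ± 0.051 had the smallest p of all tested genes (adjusted p = 1.65e-18). AHRR, the AhR repressor, which competes for ARNT, had 12.1, 10.5 and 10.1 CPM in Menthae Herba, against 6.54, 6.16 and 6.19 CPM in Saposhnikoviae Radix (log2 fold change 0.79 ± 0.116, adjusted p = 1.37e-05). CYP1B1, which also hydroxylates oestrogens, had 228, 220 and 218 CPM in Menthae Herba, against 142, 135 and 135 CPM in Saposhnikoviae Radix (0.70 ± 0.0422, adjusted p = 1.41e-16). Neither gene's groups overlapped. The strand setting of the counting step is not given in the sources used here, so reads from CYP1B1 and its antisense partner cannot be told apart.

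The remaining AhR targets tested did not pass. ALDH3A1, an aldehyde dehydrogenase with high levels in A549 cells, had 878, 886 and 871 CPM in Menthae Herba, against 845, 912 and 892 CPM in Saposhnikoviae Radix, and the groups overlapped (log2 fold change 0.00 ± 0.0567, adjusted p = 1). NQO1, a quinone reductase, averaged 1670 ± 58.9 CPM in Menthae Herba and 1614 ± 20 CPM in Saposhnikoviae Radix (0.05 ± 0.0654, adjusted p = 0.905). STC2, NFE2L2 and UGT1A6 had log2 fold changes of 0.09, 0.05 and 0.04 with adjusted p of 0.729, 0.88 and 0.991. UGT1A6 shares exons with other UGT1A genes, so its count is uncertain. The transcript of the receptor itself, AHR, fell: it had 51.6, 50.4 and 50.8 CPM in Menthae Herba, against 61.7, 62.8 and 60.4 CPM in Saposhnikoviae Radix (-0.27 ± 0.0513, adjusted p = 8.44e-04). Of its partners, ARNT, ARNT2, HSP90AB1 and PTGES3 had log2 fold changes of -0.02, 0.02, -0.04 and 0.07 and were not called.

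**Figure D2:**
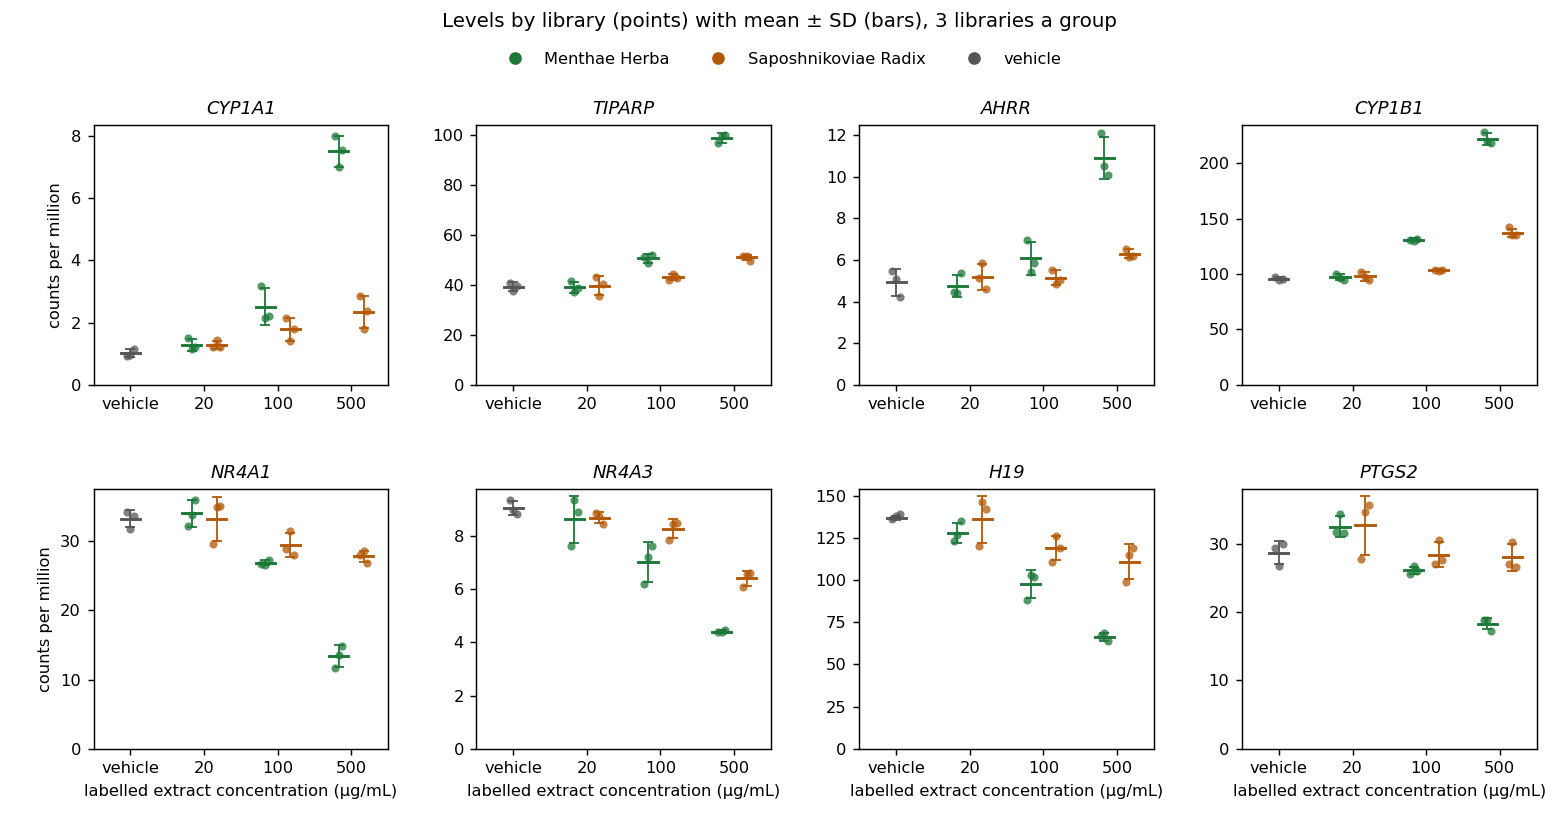
CPM in each library (points) with mean and SD (bars) for 8 genes, in vehicle and in both herbs at 20, 100 and 500 µg/mL (3 libraries a group). At 500 µg/mL the 3 Menthae Herba libraries of CYP1A1, TIPARP, AHRR and CYP1B1 lie above the 3 Saposhnikoviae Radix libraries, and those of NR4A1, NR4A3, H19 and PTGS2 lie below; at 20 µg/mL the herbs overlap.

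Outside the AhR list, the named genes that rose span several functions. GREM1, a secreted antagonist of bone morphogenetic proteins (BMPs), had 10.2, 10.1 and 9.30 CPM in Menthae Herba, against 6.77, 6.27 and 5.80 CPM in Saposhnikoviae Radix (log2 fold change 0.65 ± 0.107, adjusted p = 1.01e-04). MDGA1, a glycosylphosphatidylinositol-anchored cell surface protein of the immunoglobulin superfamily, had 15.0, 15.5 and 15.8 CPM in Menthae Herba, against 10.9, 9.49 and 9.39 CPM in Saposhnikoviae Radix (0.64 ± 0.0715, adjusted p = 4.33e-08). CCNG2, an unconventional cyclin linked to cell cycle arrest, had 6.87, 7.24 and 7.29 CPM in Menthae Herba, against 5.05, 3.60 and 5.02 CPM in Saposhnikoviae Radix (0.63 ± 0.11, adjusted p = 2.79e-04). For these genes every Menthae Herba library exceeded every Saposhnikoviae Radix library. GACAT2, a long noncoding RNA gene on chromosome 18, averaged 7.05 ± 0.669 CPM in Menthae Herba and 4.43 ± 0.369 CPM in Saposhnikoviae Radix (0.66 ± 0.127, adjusted p = 0.00113).

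The last 4 of the 12 highest named genes were nearer to the threshold. KLF11, a Krüppel-like transcription factor, averaged 8.33 ± 0.758 CPM in Menthae Herba and 5.84 ± 0.0978 CPM in Saposhnikoviae Radix (0.52 ± 0.11, adjusted p = 0.00392, and 0.0546 without Menthae Herba library 2). TSPAN18, a tetraspanin, averaged 6.14 ± 0.326 and 4.42 ± 0.123 CPM in Menthae Herba and Saposhnikoviae Radix (0.47 ± 0.108, adjusted p = 0.00891, and 0.0623 without Menthae Herba library 3 and 0.0595 with no filter on low counts). GCH1, the first enzyme of tetrahydrobiopterin synthesis, had a log2 fold change of 0.47 ± 0.126 (adjusted p = 0.0424). Without Menthae Herba library 2 or 3 its adjusted p was 0.0833 or 0.325, without Saposhnikoviae Radix library 1 or 3 it was 0.154 or 0.284, and with no filter it was 0.0698. TCP11L2 had 0.44 ± 0.12 (adjusted p = 0.0461), and its adjusted p was 0.19 and 0.223 without Menthae Herba library 1 or 3, and 0.0707, 0.249 and 0.128 without Saposhnikoviae Radix library 1, 2 or 3. It was 0.16 with no filter and 0.0716 with DESeq2.

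Among called genes at 5 CPM or more in either herb, NR4A1 had the lowest log2 fold change. NR4A1 (also called NUR77; GRCh38 chr12:52022832-52059507, plus strand) had 11.7, 13.6 and 14.9 CPM in Menthae Herba, against 28.0, 28.5 and 26.9 CPM in Saposhnikoviae Radix. No Menthae Herba library came near the Saposhnikoviae Radix range, and the log2 fold change was -1.05 ± 0.0933 (adjusted p = 4.74e-11). NR4A3 (NOR1) had 4.38, 4.38 and 4.45 CPM in Menthae Herba, against 6.09, 6.55 and 6.58 CPM in Saposhnikoviae Radix (-0.53 ± 0.0803, adjusted p = 1.32e-04). NR4A2 (NURR1) had 3.14, 3.31 and 3.18 CPM in Menthae Herba, against 3.43, 2.89 and 4.20 CPM in Saposhnikoviae Radix, with overlapping groups and no call (-0.14 ± 0.161, adjusted p = 0.891).

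Of the 18 tested NR4A and immediate early genes, 4 fell, 0 rose and 14 were not called, with a median log2 fold change of -0.07. The share that fell over all tested genes was 0.979%. FOS, a subunit of the AP-1 transcription factor, had 2.88, 3.15 and 2.30 CPM in Menthae Herba, against 4.24, 4.75 and 4.20 CPM in Saposhnikoviae Radix (-0.64 ± 0.131, adjusted p = 0.00261, and 0.0623 without Menthae Herba library 3). FOSL2, another AP-1 subunit, is named to complete the 4, after its values were seen. It averaged 121 ± 3.49 CPM in Menthae Herba and 136 ± 2.63 CPM in Saposhnikoviae Radix (-0.16 ± 0.0386, adjusted p = 0.0148). Without Menthae Herba library 3 the list held 2 called genes. Among 14 genes of feedback on MAPK signalling, the phosphatases DUSP5 (-0.21 ± 0.0437, adjusted p = 0.00414) and DUSP4 (-0.12 ± 0.0297, adjusted p = 0.0136) fell and 0 rose. The DUSP5 call was lost without Menthae Herba library 1 or 3 (adjusted p = 0.0619 and 0.0599) or Saposhnikoviae Radix library 3 (0.194), and with no filter on low counts (0.102). The DUSP4 call was lost without Menthae Herba library 2 or 3 (0.0878 and 0.144) or Saposhnikoviae Radix library 2 or 3 (0.0886 and 0.0866), and its adjusted p was 0.716 with no filter on low counts.

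H19, an imprinted long noncoding RNA of the IGF2 locus (GRCh38 chr11:1995176-2001470, minus strand), had 66.6, 68.4 and 64.0 CPM in Menthae Herba, against 99.0, 115 and 119 CPM in Saposhnikoviae Radix. The groups did not overlap (log2 fold change -0.73 ± 0.122, adjusted p = 1.16e-04). IGFBP5, which binds insulin-like growth factors, had 10.5, 11.5 and 11.5 CPM in Menthae Herba, against 17.2, 17.1 and 18 CPM in Saposhnikoviae Radix (-0.64 ± 0.0812, adjusted p = 6.06e-07). They were the 2 called of 21 tested imprinted and IGF axis genes, 16 of which lay below 0, with a median of -0.08. Among all tested genes 0.979% fell and 50.4% lay below 0.

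SDS, serine dehydratase, had 7.73, 8.02 and 8.81 CPM in Menthae Herba, against 12.5, 14.9 and 14.3 CPM in Saposhnikoviae Radix (-0.75 ± 0.0913, adjusted p = 2.38e-07). PTGS2, the inducible cyclooxygenase of prostaglandin synthesis, had 18.8, 18.8 and 17.3 CPM in Menthae Herba, against 27.1, 30.3 and 26.6 CPM in Saposhnikoviae Radix (-0.60 ± 0.0844, adjusted p = 5.77e-06). NPTX1, a secreted pentraxin best known from neurons, had 198, 202 and 191 CPM in Menthae Herba, against 280, 285 and 292 CPM in Saposhnikoviae Radix (-0.53 ± 0.034, adjusted p = 7.94e-16). In all 3 genes the herbs were separated in every library. TPPP3, a tubulin-binding protein, averaged 4.11 ± 0.344 CPM in Menthae Herba and 6.89 ± 0.635 CPM in Saposhnikoviae Radix (-0.73 ± 0.121, adjusted p = 1.14e-04). RNF43, a ubiquitin ligase that removes Wnt receptors, averaged 3.53 ± 0.602 CPM in Menthae Herba and 5.82 ± 0.564 CPM in Saposhnikoviae Radix (-0.72 ± 0.117, adjusted p = 8.54e-05). BMPER, a secreted BMP-binding protein, averaged 4.79 ± 0.442 CPM in Menthae Herba and 7.04 ± 0.668 CPM in Saposhnikoviae Radix (-0.55 ± 0.109, adjusted p = 0.00155).

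A further 3 of the 12 lowest named genes passed by less. SLC51B, a subunit of the bile acid exporter OST, had -0.61 ± 0.139 (adjusted p = 0.00788). Its adjusted p was 0.0947 and 0.063 without Menthae Herba library 2 or 3 and 0.0764 and 0.114 without Saposhnikoviae Radix library 2 or 3. MUC5AC, a gel-forming airway mucin, averaged 195 ± 13.4 CPM in Menthae Herba and 289 ± 14.9 CPM in Saposhnikoviae Radix, with non-overlapping groups (-0.56 ± 0.144, adjusted p = 0.0285). Its call was lost whichever of the 6 libraries was left out, with adjusted p from 0.0526 to 0.162. INSL4, a relaxin family peptide known from placenta, had -0.54 ± 0.129 (adjusted p = 0.014), and 0.134 without Menthae Herba library 1 and 0.132 and 0.0684 without Saposhnikoviae Radix library 2 or 3. All 3 genes kept their calls with other scaling, no filter on low counts, DESeq2, fewer groups in the fit and the replicate block.

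**Figure D3:**
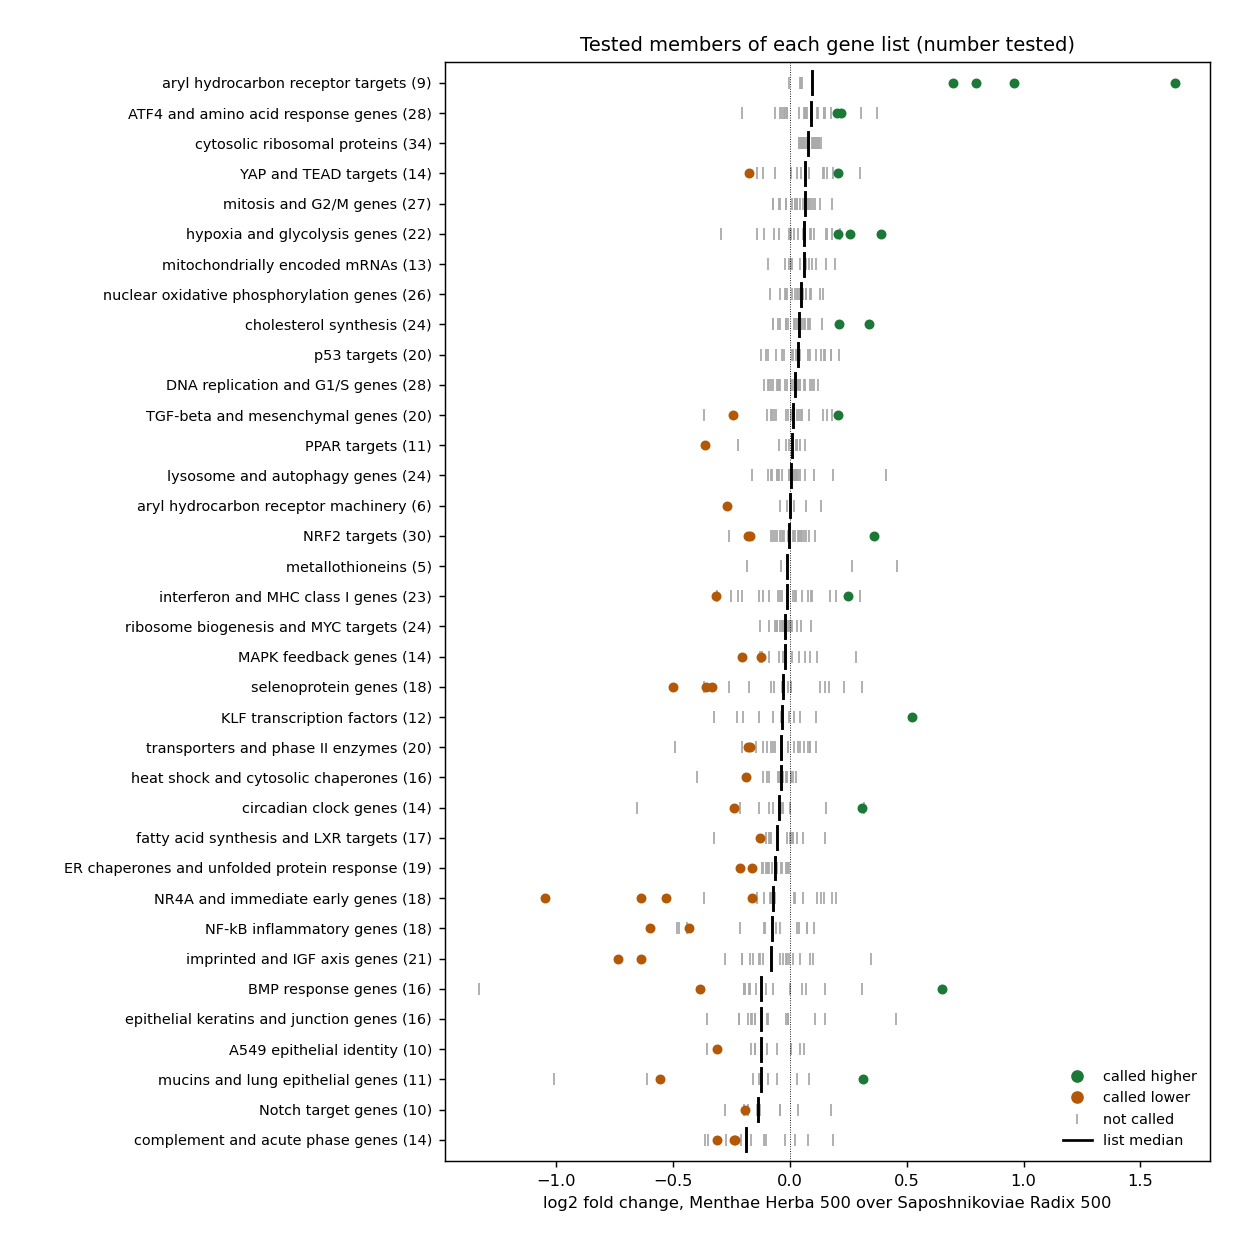
Log2 fold change of Menthae Herba 500 over Saposhnikoviae Radix 500 for the tested members of each gene list, sorted by list median (black bar); coloured points are called. The AhR targets hold the 4 highest called members in the plot, the NR4A and immediate early list holds the lowest called member, and the 34 ribosomal protein genes all lie between 0.04 and 0.13 with 0 called.

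The few inflammatory and acute phase genes called were all on the lower side, where 0.979% of all tested genes were called. Of 18 tested NF-kB inflammatory genes, PTGS2 and CXCL5 fell and 0 rose, with a median log2 fold change of -0.08. CXCL5, a neutrophil-attracting chemokine, had 36.8, 38.5 and 42.0 CPM in Menthae Herba, against 54.1, 53.2 and 51.4 CPM in Saposhnikoviae Radix (-0.43 ± 0.0505, adjusted p = 1.13e-07). Of 14 complement and acute phase genes, 3 fell, 0 rose, and the median was -0.19. The 3 are the genes of the fibrinogen chains, which neighbour each other on chromosome 4: FGA had 163, 157 and 161 CPM in Menthae Herba, against 181, 196 and 191 CPM in Saposhnikoviae Radix (-0.24 ± 0.0457, adjusted p = 0.00112). FGB had -0.31 ± 0.0673 and FGG -0.24 ± 0.052, both with an adjusted p of 0.00517. Without Saposhnikoviae Radix library 2 these became 0.0892 for FGB and 0.0599 for FGG, and FGG had 0.0519 without Menthae Herba library 2.

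Selenoprotein genes also fell where called. Of 18 tested, 3 fell and 0 rose, with a median of -0.03, where 0.979% of all tested genes fell. GPX1, cytosolic glutathione peroxidase, had 54.6, 51.5 and 55.9 CPM in Menthae Herba, against 69.2, 70.2 and 69.3 CPM in Saposhnikoviae Radix (-0.36 ± 0.0605, adjusted p = 1.32e-04). GPX3, the secreted peroxidase, averaged 10.3 ± 0.201 CPM in Menthae Herba and 14.7 ± 0.471 CPM in Saposhnikoviae Radix (-0.50 ± 0.0888, adjusted p = 3.33e-04). SELENOW averaged 37 ± 0.633 CPM in Menthae Herba and 46.9 ± 2.42 CPM in Saposhnikoviae Radix (-0.33 ± 0.0658, adjusted p = 0.00143).

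Among NRF2 targets the call on the higher side was HMOX1. It encodes heme oxygenase 1, an inducible enzyme of heme breakdown, and had 218, 219 and 223 CPM in Menthae Herba, against 174, 174 and 167 CPM in Saposhnikoviae Radix (0.36 ± 0.0425, adjusted p = 1.37e-07). Of the 30 NRF2 targets tested it was the 1 that rose, 27 were not called, and the median was 0.00. Over all tested genes 0.493% rose and 0.979% fell. The export pumps ABCC3 (-0.18 ± 0.0342, adjusted p = 0.0011) and ABCC1 (-0.17 ± 0.0467, adjusted p = 0.0494) were lower in Menthae Herba than in Saposhnikoviae Radix. Against vehicle, ABCC3 was called higher with Saposhnikoviae Radix, and neither pump was called with Menthae Herba. Between the herbs, both pumps were also the 2 called of 20 transporters and phase II enzymes, and KLF11 was the 1 called of 12 KLF factors. Among all tested genes 1.47% were called in either direction. The ABCC1 call was lost in each of the 6 fits that left out 1 library, with adjusted p from 0.105 to 0.381, with no filter (0.161) and with DESeq2 size factors (0.0505). The ABCC3 call was lost with no filter (0.111).

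The hypoxia, cholesterol and amino acid response lists had 2 or 3 calls each, all on the higher side, where 0.493% of all tested genes were called. Of 22 hypoxia and glycolysis genes 3 rose and 0 fell (median 0.06). The 3 were ADM, a vasodilator peptide (0.39 ± 0.0611, adjusted p = 4.25e-05), BNIP3L, a mitophagy receptor (0.26 ± 0.0478, adjusted p = 7.21e-04), and NDRG1 (0.20 ± 0.0488, adjusted p = 0.0148). The NDRG1 call was lost without Menthae Herba library 2 or 3 (0.0519 and 0.0734) or Saposhnikoviae Radix library 2 (0.0734), and with no filter (0.0929). Of 24 cholesterol synthesis genes 2 rose and 0 fell (median 0.04). INSIG1, the sterol-regulated brake on SREBP processing, had 40.9, 43.2 and 44.0 CPM in Menthae Herba, against 34.8, 33.6 and 33.3 CPM in Saposhnikoviae Radix (0.34 ± 0.0521, adjusted p = 3.30e-05). HMGCS1, an early enzyme of the pathway, had 0.21 ± 0.0445 (adjusted p = 0.00414). Of 28 ATF4 and amino acid response genes 2 rose, 0 fell and the median was 0.09. PHGDH, of serine synthesis, had 0.22 ± 0.0517 (adjusted p = 0.0148), and 0.0725 and 0.0512 without Menthae Herba library 1 or 3 and 0.205 without Saposhnikoviae Radix library 3. ASNS, asparagine synthetase, had 0.20 ± 0.0441 (adjusted p = 0.00577), and 0.0671 without Menthae Herba library 2, 0.0509 without Saposhnikoviae Radix library 3 and 0.0505 with no filter.

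The ER chaperone and unfolded protein response list had 2 fallen genes and 0 risen among 19, with a median of -0.06 and all 19 members below 0. Among all tested genes 0.979% fell and 50.4% lay below 0. The lean was not particular to this dose, as 15 of the 19 lay below 0 at 100 µg/mL and 17 at 20 µg/mL. Of all tested genes 51% and 49.7% lay below 0 at these doses. At 500 µg/mL HYOU1, an ER chaperone, had 92, 90.3 and 89.5 CPM in Menthae Herba, against 105, 106 and 106 CPM in Saposhnikoviae Radix (-0.22 ± 0.0334, adjusted p = 3.30e-05). SEL1L, of ER-associated degradation, had -0.16 ± 0.0402 (adjusted p = 0.0181), and was called only in the fit without Saposhnikoviae Radix library 2 among the 6 that left out 1 library, the other 5 giving 0.0744 to 0.154. With no filter it had 0.242. SERPINH1, a collagen chaperone, was the 1 called of 16 heat shock and cytosolic chaperone genes (-0.19 ± 0.0486, adjusted p = 0.0307). Its adjusted p was 0.0513, 0.156 and 0.171 without Menthae Herba library 1, 2 or 3, 0.129 and 0.319 without Saposhnikoviae Radix library 1 or 2, and 0.122 with no filter.

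Some lists held 1 called gene in each direction, where 1.47% of all tested genes were called in either. Among 16 BMP response genes GREM1 rose and ID4 fell (-0.38 ± 0.0953, adjusted p = 0.0213, and over 0.05 in 5 of the 6 fits that left out 1 library, without Menthae Herba library 1 or 2 or any Saposhnikoviae Radix library, up to 0.247). Among 20 TGF-beta and mesenchymal genes CCN1 rose (0.21 ± 0.0521, adjusted p = 0.0247) and PMEPA1 fell. The CCN1 adjusted p was 0.141 and 0.0932 without Menthae Herba library 2 or 3, 0.0682 and 0.15 without Saposhnikoviae Radix library 1 or 2, and 0.177 with no filter. Against vehicle, CCN1 was called lower with Saposhnikoviae Radix and was not called with Menthae Herba. PMEPA1, a TGF-beta target, had 195, 200 and 195 CPM in Menthae Herba, against 238, 225 and 238 CPM in Saposhnikoviae Radix (-0.25 ± 0.0365, adjusted p = 1.68e-05). OAS1, an interferon-induced sensor of double-stranded RNA, was lower (-0.32 ± 0.0812, adjusted p = 0.0281), and lost the call without Menthae Herba library 1 or 3 (0.0897 and 0.246) or Saposhnikoviae Radix library 2 or 3 (0.283 and 0.192), and with only the 6 libraries fitted (0.0612). In the mucin and lung epithelial list, ABCA3, the lipid transporter of surfactant, averaged 34.7 ± 1.56 CPM in Menthae Herba and 28.2 ± 1.43 CPM in Saposhnikoviae Radix (0.31 ± 0.0547, adjusted p = 2.76e-04), while MUC5AC fell.

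Clock genes gave NR1D2 (0.31 ± 0.0668, adjusted p = 0.00535) on the higher and PER2 (-0.24 ± 0.0523, adjusted p = 0.00525) on the lower side among 14 tested. Over all tested genes 1.47% were called in either direction and 0.979% fell. Single calls in lists as short as those of this paragraph say little about a list. NR1D2 had 0.0588 without Saposhnikoviae Radix library 3, and PER2 had 0.0582 without Menthae Herba library 3. Among 14 YAP and TEAD targets CCN1 rose and CRIM1 fell (-0.18 ± 0.0385, adjusted p = 0.00571). Single members fell in other lists: JAG1 among 10 Notch targets (-0.19 ± 0.0433, adjusted p = 0.00788), PDK4 among 11 PPAR targets (-0.36 ± 0.0837, 0.00969) and ELOVL5 among 17 fatty acid synthesis and LXR targets (-0.13 ± 0.0326, 0.0247). CRIM1 lost its call without Saposhnikoviae Radix library 1 (0.0717) or Menthae Herba library 3 (0.0716). JAG1 lost it without Menthae Herba library 2 or 3 (0.0572 and 0.0638) or Saposhnikoviae Radix library 2 (0.0578), and PDK4 without Menthae Herba library 2 (0.0594) or Saposhnikoviae Radix library 2 or 3 (0.0843 and 0.115). ELOVL5 lost it without Menthae Herba library 1 or 2 (0.12 and 0.232) or Saposhnikoviae Radix library 2 or 3 (0.154 and 0.16). With no filter the adjusted p was 0.121 for CRIM1, 0.0633 for JAG1 and 0.672 for ELOVL5.

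Proliferation and core metabolism lists held 0 called genes in the edgeR fit with all 57 libraries, where 1.47% of all tested genes were called. These were DNA replication and G1/S genes (28 tested, median 0.02), mitosis and G2/M genes (27, 0.06), p53 targets (20, 0.04), ribosome biogenesis and MYC targets (24, -0.02), nuclear oxidative phosphorylation genes (26, 0.05) and mitochondrially encoded mRNAs (13, 0.06). Keratin and junction genes (16, median -0.13), lysosome and autophagy genes (24, 0.01) and metallothioneins (5, -0.01) also had 0 calls. With 1.47% of all tested genes called, 0 calls in lists of this size say little about them. DESeq2 called 1 mitosis gene and 2 keratin and junction genes. The 34 cytosolic ribosomal protein genes all had log2 fold changes above 0, from 0.04 to 0.13, with 0 called. Of all tested genes 49.5% lay above 0. At 100 µg/mL 30 of the 34 lay below 0, against 51% of all tested genes.

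The libraries at 100 and 20 µg/mL gave the same 2 herbs at lower matched doses. The fold changes at 500 µg/mL do not compare them, but they share its filter, fit and estimate of spread. At 100 µg/mL 2 of 17256 genes (0.0116%) were called, and 602 had an unadjusted p under 0.05. CYP1B1 had 131, 130 and 132 CPM in Menthae Herba, against 104, 103 and 104 CPM in Saposhnikoviae Radix (log2 fold change 0.32 ± 0.0426, adjusted p = 3.78e-05). GPX1 had 56.7, 59.3 and 56.6 CPM in Menthae Herba, against 73.4, 69.5 and 76.4 CPM in Saposhnikoviae Radix (-0.36 ± 0.0597, adjusted p = 0.00197, and 0.05 without Menthae Herba library 3 and 0.089 without Saposhnikoviae Radix library 3). The groups did not overlap for either gene, as for 12.6% of all tested genes at this dose. At 20 µg/mL edgeR called 0 genes (0%), with 400 at an unadjusted p under 0.05, and DESeq2 called 2.

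Genes called at 500 µg/mL leaned the same way at 100 µg/mL. Of the 85 higher genes 74 were above 0 at 100 µg/mL, where 48.9% of all tested genes were above 0, and their median was 0.08. Of the 169 lower genes 146 were below 0, against 51% of all tested genes, with a median of -0.07. At 20 µg/mL 47 of the 85 were above 0 (50.2% of all genes) and 136 of the 169 below 0 (49.7% of all genes), with medians of 0.01 and -0.03. All 12 highest named genes were above 0 at 100 µg/mL, between 0.02 and 0.46, and 4 of the 12 at 20 µg/mL. Of the 12 lowest, 9 were below 0 at 100 µg/mL and 9 at 20 µg/mL. TIPARP averaged 50.6 ± 1.8 CPM in Menthae Herba and 43 ± 1.21 CPM in Saposhnikoviae Radix at 100 µg/mL, where it was not called (0.21 ± 0.0525, adjusted p = 0.352), and 39.1 ± 2.15 and 39.7 ± 3.7 CPM at 20 µg/mL. MDGA1 had 0.34 ± 0.0709 at 100 µg/mL and did not pass (adjusted p = 0.0891).

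**Figure D4:**
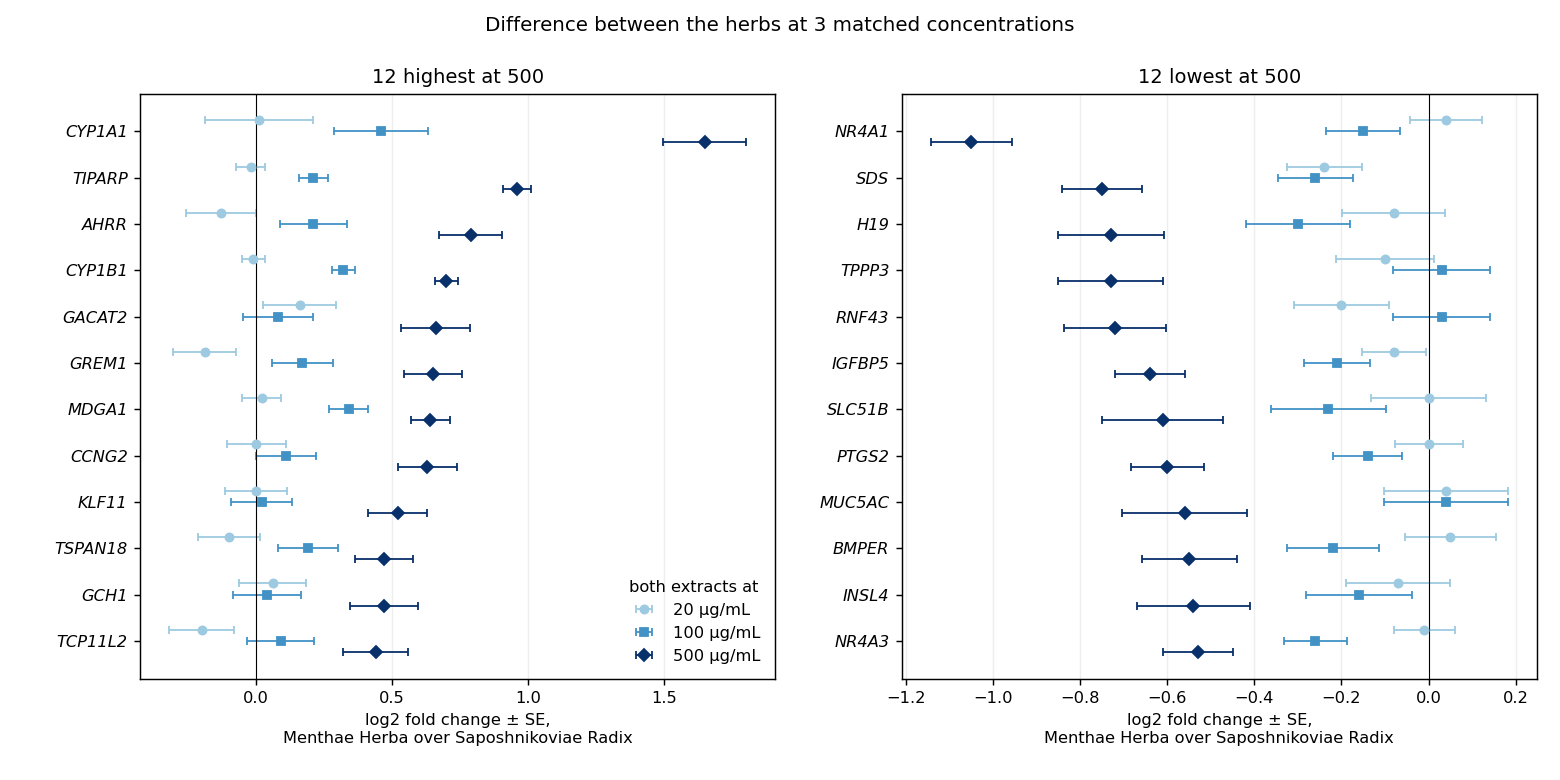
Log2 fold change of Menthae Herba over Saposhnikoviae Radix with its SE at 20, 100 and 500 µg/mL, for the 12 highest and 12 lowest named genes at 500 µg/mL. The values at 20 µg/mL lie between -0.24 and 0.16, those at 100 µg/mL between -0.30 and 0.46, and those at 500 µg/mL, where the genes were chosen, between -1.05 and -0.53 or between 0.44 and 1.65.

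The change from 20 to 500 µg/mL differed between the herbs for 34 genes (0.197%), 12 with the larger value in Menthae Herba (0.0695%) and 22 with the larger in Saposhnikoviae Radix (0.127%). For CYP1A1 the difference of the changes was 1.64 ± 0.252 on the log2 scale (adjusted p = 1.58e-04). Its means at 20, 100 and 500 µg/mL were 1.28, 2.51 and 7.51 CPM in Menthae Herba and 1.28, 1.78 and 2.34 CPM in Saposhnikoviae Radix. For TIPARP the difference was 0.98 ± 0.0741 (adjusted p = 1.03e-12), for AHRR 0.92 ± 0.174 (adjusted p = 0.00346), for GREM1 0.84 ± 0.158 (adjusted p = 0.00346) and for CYP1B1 0.70 ± 0.0602 (adjusted p = 3.91e-11). NR4A1 had the lowest value, -1.09 ± 0.125 (adjusted p = 1.62e-07). Its means at 20, 100 and 500 µg/mL were 34, 26.9 and 13.4 CPM in Menthae Herba and 33.2, 29.4 and 27.8 CPM in Saposhnikoviae Radix. PTGS2 (-0.60 ± 0.115, adjusted p = 0.0044), IGFBP5 (-0.56 ± 0.11, 0.00673), NR4A3 (-0.52 ± 0.107, 0.0467) and NPTX1 (-0.50 ± 0.0478, 1.23e-09) followed. H19 did not pass this test (-0.65 ± 0.169, adjusted p = 0.104), with means at 20, 100 and 500 µg/mL of 128, 97.7 and 66.3 CPM in Menthae Herba and 136, 119 and 111 CPM in Saposhnikoviae Radix. GPX1 had -0.19 ± 0.0849 (adjusted p = 0.786), with means of 63.7, 57.5 and 54 CPM in Menthae Herba and 71.8, 73.1 and 69.5 CPM in Saposhnikoviae Radix.

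Vehicle shows on which side each herb moved. The vehicle libraries carry another first mark in their library names than the herbs, so that set and treatment cannot be told apart here, and the comparisons below share libraries with each other and with the one between herbs. The named genes were chosen by their values in these same 500 µg/mL libraries. Many calls against vehicle among them follow in part from that choice, and the shares of all genes printed below are no fair baseline for them. Menthae Herba 500 differed from vehicle in 1169 genes (6.77%), and Saposhnikoviae Radix 500 in 270 (1.56%). Without vehicle library 2 or Menthae Herba library 1 the first count was 678 or 654. The second was 117 to 166 when any 1 of its 6 libraries was left out. With only the libraries of each contrast in the fit, both counts were larger and closer in proportion, as the last section gives. Their ratio is therefore no measure of how strongly each herb acted.

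Of the 12 highest named genes, 11 were called higher with Menthae Herba than with vehicle, where 3.34% of all genes were, and 3 with Saposhnikoviae Radix, where 0.921% were. CYP1A1 averaged 7.51 ± 0.497 CPM in Menthae Herba, 2.34 ± 0.525 CPM in Saposhnikoviae Radix and 1.02 ± 0.123 CPM in vehicle (SD, n = 3 each). Both herbs were called against vehicle, at 2.84 ± 0.167 for Menthae Herba (adjusted p = 1.73e-17) and 1.18 ± 0.182 for Saposhnikoviae Radix (adjusted p = 1.03e-04). CYP1B1 (1.17 ± 0.0426 and 0.48 ± 0.0425) and TIPARP (1.29 ± 0.0512 and 0.33 ± 0.0522) were likewise called with Menthae Herba and with Saposhnikoviae Radix, in that order. AHRR was called with Menthae Herba (1.11 ± 0.117, adjusted p = 2.82e-09) and not with Saposhnikoviae Radix (0.31 ± 0.122, adjusted p = 0.202). GREM1 was at 0.71 ± 0.105 with Menthae Herba (adjusted p = 7.24e-06) and at 0.05 ± 0.109 with Saposhnikoviae Radix (adjusted p = 0.871).

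All 12 lowest named genes were called lower with Menthae Herba than with vehicle, where 3.43% of all genes were. With Saposhnikoviae Radix 2 of them, NR4A1 and NR4A3, were called lower, where 0.643% of all genes were, and 1, SDS, was called higher. NR4A1 averaged 13.4 ± 1.59 CPM in Menthae Herba, 27.8 ± 0.82 CPM in Saposhnikoviae Radix and 33.2 ± 1.23 CPM in vehicle, with log2 fold changes against vehicle of -1.35 ± 0.0908 in Menthae Herba (adjusted p = 2.16e-15) and -0.30 ± 0.0827 in Saposhnikoviae Radix (adjusted p = 0.0455). H19 averaged 66.3 ± 2.2 CPM in Menthae Herba, 111 ± 10.5 CPM in Saposhnikoviae Radix and 137 ± 1.25 CPM in vehicle. Its change was -1.09 ± 0.121 with Menthae Herba (adjusted p = 1.07e-08) and -0.36 ± 0.118 with Saposhnikoviae Radix (adjusted p = 0.114). PTGS2 averaged 18.3 ± 0.847 CPM in Menthae Herba, 28 ± 1.99 CPM in Saposhnikoviae Radix and 28.7 ± 1.7 CPM in vehicle.

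SDS and MDGA1 were called on opposite sides of vehicle. SDS averaged 8.19 ± 0.559 CPM in Menthae Herba, 13.9 ± 1.23 CPM in Saposhnikoviae Radix and 10.4 ± 0.606 CPM in vehicle. Its log2 fold change against vehicle was -0.39 ± 0.0919 in Menthae Herba (adjusted p = 0.0043) and 0.36 ± 0.085 in Saposhnikoviae Radix (adjusted p = 0.0137). MDGA1 averaged 15.5 ± 0.396 CPM in Menthae Herba, 9.92 ± 0.83 CPM in Saposhnikoviae Radix and 12.9 ± 0.606 CPM in vehicle, with 0.22 ± 0.0681 (adjusted p = 0.04) in Menthae Herba and -0.42 ± 0.0706 (adjusted p = 3.40e-04) in Saposhnikoviae Radix. INSIG1 was at 0.10 ± 0.0509 in Menthae Herba, where it was not called (adjusted p = 0.272), and at -0.24 ± 0.0514 in Saposhnikoviae Radix, where it fell below vehicle (adjusted p = 0.00678). HYOU1 was at -0.06 ± 0.0333 in Menthae Herba (adjusted p = 0.354) and rose in Saposhnikoviae Radix (0.16 ± 0.0331, adjusted p = 0.00472).

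**Figure D5:**
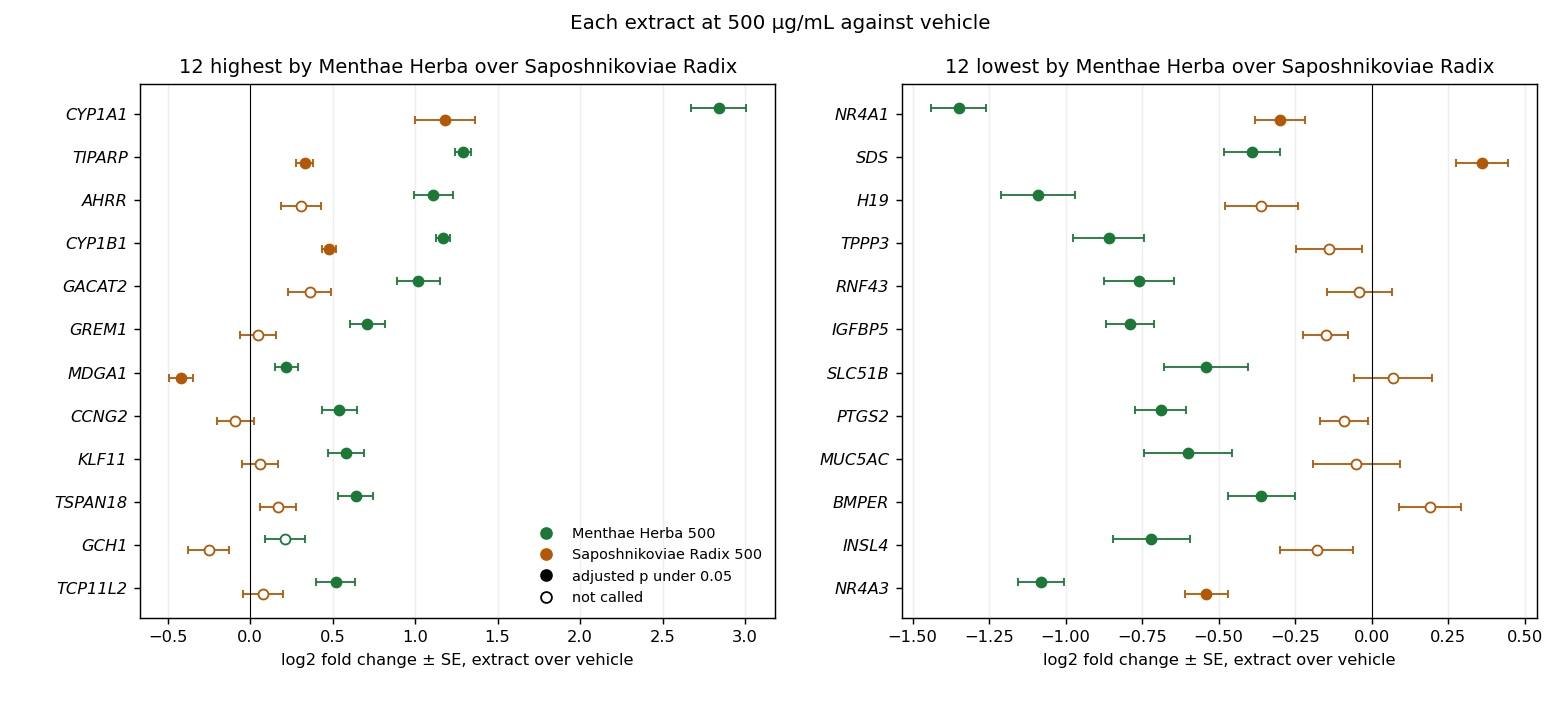
Log2 fold change over vehicle with its SE for the 12 highest and 12 lowest named genes, for Menthae Herba 500 and Saposhnikoviae Radix 500; filled points passed an edgeR adjusted p of 0.05. Menthae Herba points are filled for 11 of the 12 highest and all 12 lowest genes, Saposhnikoviae Radix points for 4 and 3, and MDGA1 and SDS have filled points on both sides of 0.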

How the data were processed

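The deposited values are expected counts from RSEM, which the authors give for 60675 genes and 60 libraries. The submitters' processing notes name RSEM 1.3.3, STAR 2.7.3a, Trim Galore 0.6.5 and FastQC 0.11.9, with hg38 as the build. The annotation release and strand setting are not given in the sources used here. Per the labels' protocols the RNA integrity number was over 7 and directional libraries were read as 100 bp pairs. Expected counts were rounded (10.5% of cells were not whole). The 19 groups of 3 libraries, 57 in all, shared 1 edgeR 4.0.16 quasi-likelihood fit in R 4.3.3 (TMM scaling, filterByExpr by group, 38 residual degrees of freedom). It tested 17256 genes, with Benjamini-Hochberg adjustment within each comparison and a threshold of 0.05. Soshiho-tang, with 1 library a dose, was left out. SE is the log2 fold change divided by the root of the F statistic, and CPM are counts scaled to a library total of 1e6. DESeq2 1.42.0 was an alternative. Per-sample columns left aside numbered 0. The fit was tested on simulated data with independent libraries and the same spread set for every gene. That setting is simpler than these data, so it checks the working of the fit and not the calls made here. Libraries of a group differed by 1.88 to 5.96 chi-square per degree of freedom, so none was counted as a copy.

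Gene symbols were looked up by ID for 56558 genes in the gene name table and for 497 more in GENCODE 29; positions are those of GENCODE 29. Library totals set the precision of counting, and the spread is that between libraries of a group. The labels do not say whether it includes separate cultures. Genes were named as the 12 highest and 12 lowest called log2 fold changes with 5 CPM or more in either group, non-overlapping libraries and a symbol that is no clone, accession or LINC name, the 5 highest and lowest in the other comparisons between herbs, all tested AhR targets, the NR4A genes, TIPARP, NR4A1 and H19, and up to 3 called members of each of 39 lists in each direction. The comparison, the genes and the lists were chosen with earlier results of these data known. Upstream windows are from RefSeq on GRCh38.p14, matched by symbol for 11782 tested genes. Samples that share a replicate number at 500 µg/mL had correlations of their deviations of -0.02 to 0.02, so the number was not used as a pairing. The alternatives were another scaling, no filter, DESeq2, fewer libraries in the fit, a replicate block and leaving out each library. A small number of gene results are not reported here.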

Additional observations from a re-analysis of the deposited data

Results flagged for a closer look

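The change from 20 to 500 µg/mL was tested for a difference between Menthae Herba and Saposhnikoviae Radix, and 34 genes passed an edgeR adjusted p of 0.05. Their values are differences of log2 changes, Menthae Herba minus Saposhnikoviae Radix. The values were 1.64 for CYP1A1, 0.98 for TIPARP, 0.92 for AHRR, 0.84 for GREM1 and 0.70 for CYP1B1. Positive values mean that the log2 change with dose was higher in Menthae Herba. Negative values of -1.09 for NR4A1, -0.60 for PTGS2, -0.56 for IGFBP5, -0.52 for NR4A3 and -0.50 for NPTX1 mean that it was lower in Menthae Herba. A difference of changes does not say by itself which herb moved. The NR4A3 value had an adjusted p of 0.0467 and lost its call in 15 of 18 alternatives, 11 of which left out 1 library. PTGS2 lost it without Saposhnikoviae Radix 20 library 1 (0.0555), and IGFBP5 without that library (0.0543) or Menthae Herba 500 library 1 (0.0545).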

How the results depend on the processing

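Between the herbs at 500 µg/mL 254 genes were called. The count was 657 with only the 6 libraries of the contrast, 720 with vehicle and both herbs only, and 147 to 189 without 1 library. Other scaling (248), no filter (310, of which 155 were among the 254), DESeq2 (282) and the replicate block (333) stayed within 1.5 times. At 100 µg/mL the 2 calls became 84 with no filter, 7 with DESeq2, 6 with only the contrast's libraries, 5 with vehicle and both herbs, 5 with the replicate block, and 1 to 3 without 1 library. At 20 µg/mL the 0 calls became 69 with no filter, 2 with DESeq2 and 1 with only the contrast's libraries. The 34 genes whose dose change differed became 125 with no filter, 57 with DESeq2, 106 with only the contrast's libraries, 133 with vehicle and both herbs, 57 with the replicate block, and 20 to 32 without 1 library; 20 was without Saposhnikoviae Radix 20 library 1, and 22 without Menthae Herba 20 or Saposhnikoviae Radix 500 library 3. Menthae Herba 500 against vehicle had 2907 with only the contrast's libraries, 2944 with vehicle and both herbs, and 654 to 808 without 1 library, against 1169. Saposhnikoviae Radix 500 against vehicle had 551 with no filter, 2148 with only the contrast's libraries, 1946 with vehicle and both herbs, 512 with the replicate block, and 117 to 166 without 1 library, against 270. The cause was not tested; the median SE in the main comparison was 0.0946 with 57 libraries and 0.0674 with 6. Of 804 alternative values for 67 named genes in the main comparison, 692 kept direction and call, 104 lost the call and 8 changed sign, all in uncalled genes: ALDH3A1 (-0.02 to 0.02 without 1 library) was 0.00 with vehicle and both herbs, 0.01, 0.01 and 0.01 without Menthae Herba library 1 or 3 or Saposhnikoviae Radix library 3 and 0.02 without Saposhnikoviae Radix library 2; UGT1A6 (-0.17 to 0.33) was -0.17 without Saposhnikoviae Radix library 1 and -0.01 without Menthae Herba library 2; NR4A2 (-0.24 to 0.01) was 0.01 without Saposhnikoviae Radix library 3. Replicate numbers did not pair the samples, so a call under the block is no paired result. Other scalings moved the median over all genes by at most 0.002 in the main comparison. The difference in mitochondrial share (Menthae Herba minus Saposhnikoviae Radix) ran from -0.0621 to 0.878 percentage points and that in total counts from -6784736 to -503163 without 1 library. Genes near 1 CPM rest on few reads, so small changes there were not detectable.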
